A study of Mus musculus with 6 samples.

Results

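The transcripts of 4 pancreatic islet hormones, Ins1, Ins2, Iapp and Ppy, were measured in pieces of mouse duodenum. They were chosen by symbol, not by level, and make up 4 of the 23699 rows of each library's gene table. The level of each was set against that of Ctrb1, the chymotrypsinogen of pancreatic acinar cells, in the same library. The question was which islet hormones rise and fall with acinar RNA in the piece and which do not. Very few reads lay behind these genes, in total 15 for Ins1, 38 for Ins2, 168 for Iapp and 5 for Ppy over all 6 libraries, as implied by the deposited confidence intervals.

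Each library came from the duodenum of a 6-week-old mouse of mixed background, and the piece was the first 2 cm of gut beyond the stomach. Controls 1 and 2 carried Nkx2.2flox/+ and Rosa26Tomato/+. Control 3 carried Nkx2.2flox/+ and has no Rosa26Tomato allele in its label. The 3 mutants carried Nkx2.2flox/TN, Villin-Cre/+ and Rosa26Tomato/+. All 6 libraries thus share a floxed Nkx2.2 allele, and no control carried Cre or the TN allele. Villin-Cre acts in the intestinal epithelium, so in any pancreas attached to a mutant piece the floxed allele should be intact beside the TN allele. Nkx2.2 is a homeodomain factor of islet and enteroendocrine cells, and the TN domain is the stretch through which it binds Groucho corepressors. The whole piece was used, so fewer cells of a type and less RNA per cell cannot be told apart.

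Ins1 and Ins2 encode the insulins of the islet beta cell, the hormone that lowers blood glucose. Iapp encodes islet amyloid polypeptide, or amylin, which beta cells store and release together with insulin and which slows gastric emptying. Amylin is also made outside the pancreas, in endocrine cells of the stomach and gut. Ppy encodes pancreatic polypeptide, the hormone of the islet PP cell, which lies most densely in the part of the pancreas next to the duodenum. In the mouse the pancreas is spread through the mesentery along the duodenum, while acinar cells such as those that make Ctrb1 form most of its mass and islets a small share.

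The 2 mouse insulin genes are near copies, which limits how well short reads can be assigned between them. The first 150 coding bases of each are shown from the start codon, read from the GENCODE M1 transcripts, and capitals mark the 14 bases that differ.
Ins1: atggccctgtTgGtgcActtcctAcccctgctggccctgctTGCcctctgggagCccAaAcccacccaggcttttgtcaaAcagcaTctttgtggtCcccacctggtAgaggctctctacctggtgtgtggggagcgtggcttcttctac
Ins2: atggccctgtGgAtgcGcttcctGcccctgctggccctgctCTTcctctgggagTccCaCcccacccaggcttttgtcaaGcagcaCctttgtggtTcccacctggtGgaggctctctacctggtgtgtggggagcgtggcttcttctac
Over the whole coding sequence, 327 bases in Ins1 and 333 in Ins2, 302 of 333 aligned positions were identical (90.7%). The longest stretch shared without a difference was 56 bases. The split of reads between Ins1 and Ins2 is therefore uncertain, and the treatment of shared reads in the authors' counting is not stated in the labels or headers. Ppy and its neighbour Pyy were 51.5% identical, with no shared stretch over 10 bases.

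In build mm9, Ins1 lies on chromosome 19 at 52338813 to 52339946 on the plus strand, a gene with 2 exons. Ins2 lies on chromosome 7 at 149864561 to 149885415 on the minus strand, and the transcript counted here has 3 exons. Iapp lies on chromosome 6 at 142246943 to 142252481 on the plus strand, with 3 exons. Ppy lies on chromosome 11 at 101961244 to 101962633 on the minus strand, with 4 exons, and Pyy follows it at 101967990 to 101969146 on the same strand. Values are gene-level FPKM, fragment counts scaled by transcript length and library size, so levels of different genes are given per length. Of the 3 Ins2 transcripts listed, that of 451 bases carried all of the gene's FPKM to 5 decimals in each library where it was above 0.

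The libraries held 14.2 to 25.9 M (megareads) implied reads, control 1 the fewest. The piece was duodenal by its epithelial genes, with Cdx2 at 61.1 to 72.6 FPKM and Vil1, which encodes villin, at 630 to 699 FPKM. The summed level of the 11 genes on the stomach list was highest in control 1, at 690 FPKM, and 38.7 to 273 FPKM in the other libraries. Most of the sum in control 1 was Tff2, at 510 FPKM, and Gkn3, at 159 FPKM. Muc6, Pgc and Tff1 reached at most 15.7, 3.87 and 2.23 FPKM in any library. Gkn1, Gkn2, Atp4a, Atp4b and Gif did not exceed 0.421 FPKM, and Muc5ac was listed at 0 in all 6. The tissue source of these RNAs was not tested. The targeted gene Nkx2-2 stood at 1.00, 1.03 and 1.27 FPKM in controls 1 to 3 and at 0.748, 0.744 and 0.666 FPKM in mutants 1 to 3. All 3 mutants were below all 3 controls, as in 9.92% of all rows tested (1574 of 15864), and the difference did not pass the test (log2 difference -0.54, SE 0.16, adjusted p = 0.79, limma). Its reads do not separate the alleles.

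Ctrb1 itself varied widely between libraries of the same group. It stood at 4.61, 87.3 and 2171 FPKM in controls 1, 2 and 3, and at 727, 648 and 3027 FPKM in mutants 1, 2 and 3. The highest library thus held 656 times the lowest, and the groups overlapped. In order of Ctrb1 the libraries run control 1, control 2, mutant 2, mutant 1, control 3 and mutant 3. This order is used below to describe the hormones.

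Ins2 was the higher insulin transcript per length in each library with a read of either gene. It was listed at 0 in control 1, at 1.42 FPKM in control 2 and at 2.95 FPKM in control 3, and at 0.992, 0.859 and 3.82 FPKM in mutants 1 to 3. The highest values were those of control 3 and mutant 3, which were also the 2 libraries highest in Ctrb1, and the groups overlapped. The implied reads were 0, 5 and 11 in the controls and 2, 3 and 17 in the mutants. Because Ins2 has several transcripts its deposited interval is wider than counting alone, and the length of its transcript gives 0, 7 and 14 reads in the controls and 4, 5 and 20 in the mutants. The intervals below use the smaller numbers. With no read in control 1, a level of up to 1.27 FPKM, the value of 3 reads, was not detectable there.

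Ins1 was lower per length and rested on single reads. It was listed at 0, 0.176 and 0.437 FPKM in controls 1 to 3 (0, 3 and 7 reads) and at 0, 0.0480 and 0.227 FPKM in mutants 1 to 3 (0, 1 and 4 reads). Control 3 and mutant 3 were again the highest, and the groups overlapped. In the 4 libraries with a read of each gene, Ins1 stood at 0.0559 to 0.148 of the Ins2 FPKM, and the exact 95% intervals of those ratios all overlapped.

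Iapp was the only one of the 4 hormones above 0 in every library, and it was lowest in control 1. It stood at 0.878, 2.73 and 2.70 FPKM in controls 1 to 3 (6, 28 and 26 reads) and at 2.96, 4.08 and 3.12 FPKM in mutants 1 to 3 (24, 51 and 33 reads). Each mutant was above each control, by as little as 2.96 against 2.73 FPKM, and the exact 95% Poisson intervals of those 2 libraries overlapped (1.89 to 4.40 and 1.82 to 3.95 FPKM). Outside control 1 its highest and lowest values differed less than those of Ins2.

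Ppy was seen in 2 libraries only. It was listed at 0, 0 and 0.187 FPKM in the controls and at 0, 0 and 0.679 FPKM in the mutants, from 1 read in control 3 and 4 reads in mutant 3. Those are the libraries with the most Ctrb1. In the other 4 libraries the value of 3 reads was 0.431 to 0.789 FPKM, above the single read seen in control 3. Intervals and limits here cover counting error only, since reads from PCR copies are not independent molecules.

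**Figure D1:**
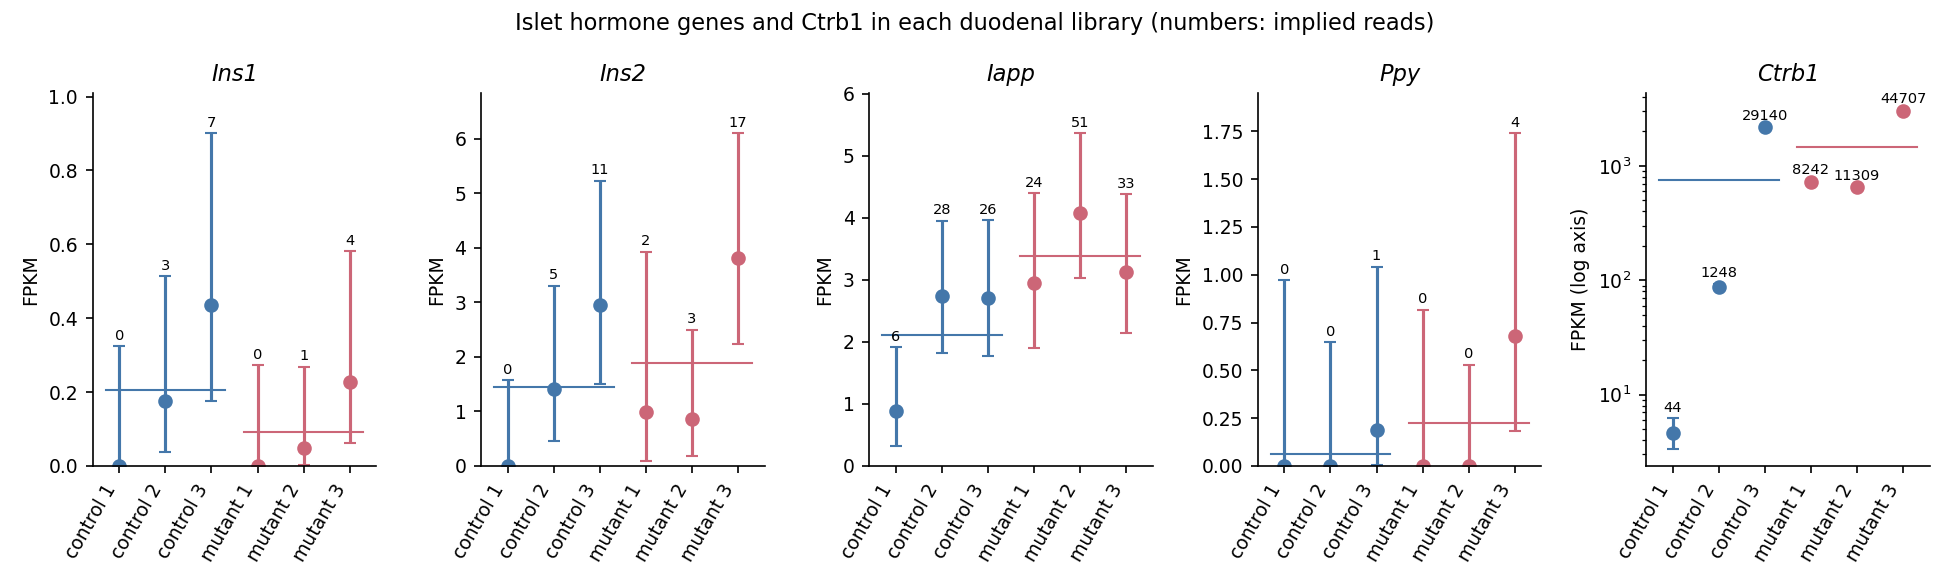
FPKM of Ins1, Ins2, Iapp and Ppy (linear axes) and of Ctrb1 (log axis) in each library, controls in blue and mutants in red. Points are single libraries, bars 95% Poisson intervals from the implied reads before rounding, and horizontal lines group means. The numbers above the bars are the implied reads, rounded. Iapp has 6 to 51 reads in a library, and Ppy 0 to 4.

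Divided by Ctrb1 of the same library, Ins2 was near constant in 4 libraries and Iapp was not. Per 1000 FPKM of Ctrb1, Ins2 stood at 1.33, 1.36, 1.36 and 1.26 FPKM in mutant 2, mutant 1, control 3 and mutant 3. The highest of these was 1.08 times the lowest, while Ctrb1 itself varied 4.67-fold among the same libraries. The counting intervals are much wider than that spread, 0.126 to 5.40 in mutant 1 and 0.737 to 2.01 in mutant 3. In control 2, where Ctrb1 was low, Ins2 stood at 16.2 per 1000 FPKM of Ctrb1 (5.27 to 37.9), and this interval overlapped that of mutant 1 but not those of mutant 2, control 3 and mutant 3. The overlap with mutant 1 rests on the smaller read numbers, 2 in mutant 1 and 5 in control 2. The transcript length gives 4 and 7 reads there, for which intervals are narrower and were not computed, so no reading is drawn from that overlap. In control 1 no Ins2 read was seen, and the value of 3 reads would be 276 per 1000 FPKM of Ctrb1, so nothing can be read from that library.

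The ratio of Iapp to Ctrb1 was lower in each library with more Ctrb1. It stood at 190 FPKM per 1000 FPKM of Ctrb1 in control 1 (69.9 to 414), 31.3 in control 2 (20.8 to 45.3), 6.30 in mutant 2, 4.07 in mutant 1, 1.25 in control 3 and 1.03 in mutant 3. The ratio spanned 185-fold over the 6 libraries and 6.11-fold over the last 4, while Iapp in FPKM spanned 4.64-fold. Intervals of mutant 2 (4.69 to 8.28) and mutant 3 (0.709 to 1.45) did not overlap. Ins1 stood at 2.01 per 1000 FPKM of Ctrb1 in control 2, 0.201 in control 3, 0.0741 in mutant 2 and 0.0750 in mutant 3, and Ppy at 0.0861 in control 3 and 0.224 in mutant 3.

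**Figure D2:**
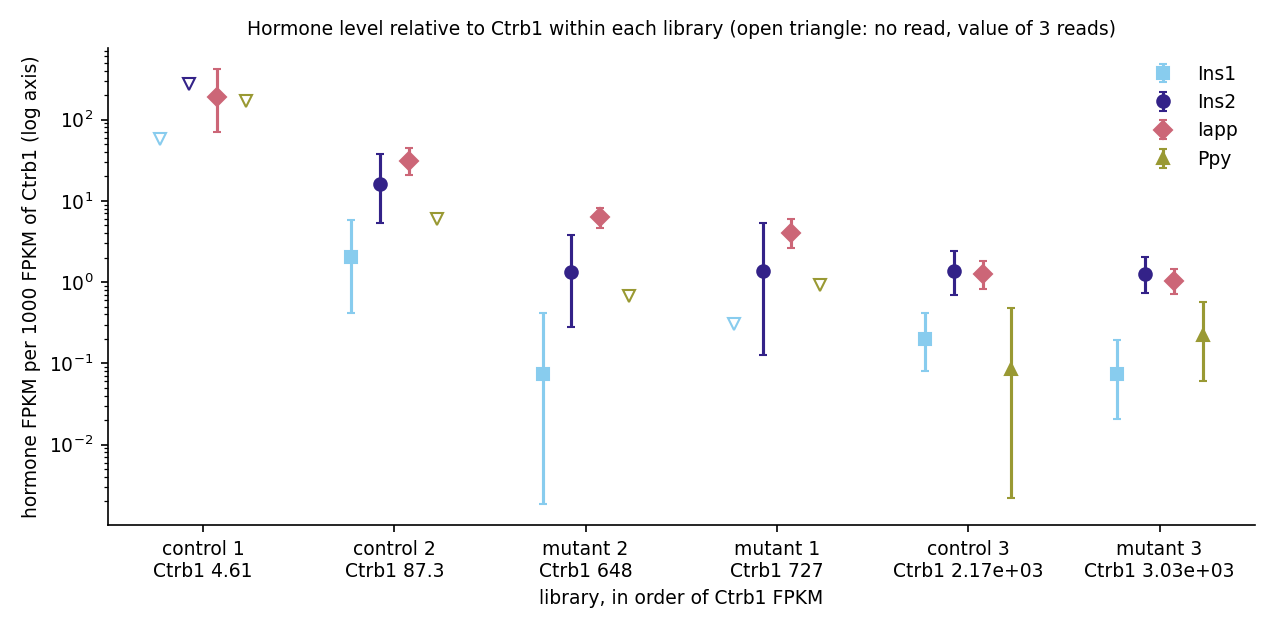
Each hormone in FPKM per 1000 FPKM of Ctrb1 of the same library (log axis), with libraries in order of Ctrb1 and 95% counting intervals. Open triangles mark libraries without a read and are drawn at the value of 3 reads. Ins2 lies between 1.26 and 1.36 in the 4 libraries on the right, where Iapp falls from 6.30 to 1.03.

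Relative to Ins2, Iapp was lowest in the 2 libraries with the most Ctrb1. Iapp stood at 4.75 times the Ins2 FPKM in mutant 2 (exact 95% interval 1.55 to 24.1), 2.98 times in mutant 1 and 1.93 times in control 2. It stood at 0.917 times in control 3 and 0.817 times in mutant 3 (0.448 to 1.58). In control 1 there were 6 reads of Iapp and 0 of Ins2. The log2 ratio of Ins2 to Iapp, a measure chosen after the values were seen, had Pearson's r = 0.81 with Ctrb1 over 6 libraries (exact permutation p = 0.046, Spearman's rho = 0.83, p = 0.058). Because the measure came from these same values, its p-values are a description and no support for the pattern. In control 1 the Ins2 term of this ratio is the pseudocount alone. Without control 1 it had r = 0.51 (exact p = 0.39), and without controls 1 and 2, over 4 libraries, r = 0.98 (exact p = 0.125).

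Across the 6 libraries, each hormone was correlated with Ctrb1 on the log2(FPKM + 0.1) scale. For Ins2, r = 0.91 (exact permutation p = 0.015, two-sided, 0.061 adjusted over the 4 relations) and rho = 0.83 (p = 0.058). For Iapp, r = 0.84 (exact p = 0.085, adjusted 0.17) and rho = 0.43 (p = 0.42). For Ppy, r = 0.63 (exact p = 0.2, adjusted 0.27) and rho = 0.85 (p = 0.067), and for Ins1, r = 0.57 (exact p = 0.27, adjusted 0.27) and rho = 0.64 (p = 0.2). None passed after adjustment.

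Controls 1 and 2 are the 2 libraries farthest from the median of log2 Ctrb1. Without them, over 4 libraries, r was 0.999 for Ins2 (exact p = 0.042, adjusted 0.17) and -0.56 for Iapp (exact p = 0.54). Without control 1 alone, r was 0.61 for Ins2 (exact p = 0.25), 0.10 for Iapp (exact p = 0.86), 0.76 for Ppy (exact p = 0.15) and 0.30 for Ins1 (exact p = 0.65). Without control 2, r was 0.98 for Ins2 (exact p = 0.0083, adjusted 0.033) and 0.89 for Iapp (exact p = 0.15). The relation of Iapp with Ctrb1 over all libraries thus rests on control 1. That of Ins2 also leans on control 1, without which r fell from 0.91 to 0.61. With no Ins2 read in control 1, its value there is the pseudocount. The limit of 1.27 FPKM there, from the deposited interval, lies above Ins2 in mutant 1 (0.992 FPKM) and mutant 2 (0.859 FPKM). By the length of the transcript the value of 3 reads there is 0.884 FPKM, above mutant 2 but below mutant 1. Ppy and Ins1 without the 2 farthest gave r = 0.97 (exact p = 0.083) and r = 0.86 (exact p = 0.33).

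**Figure D3:**
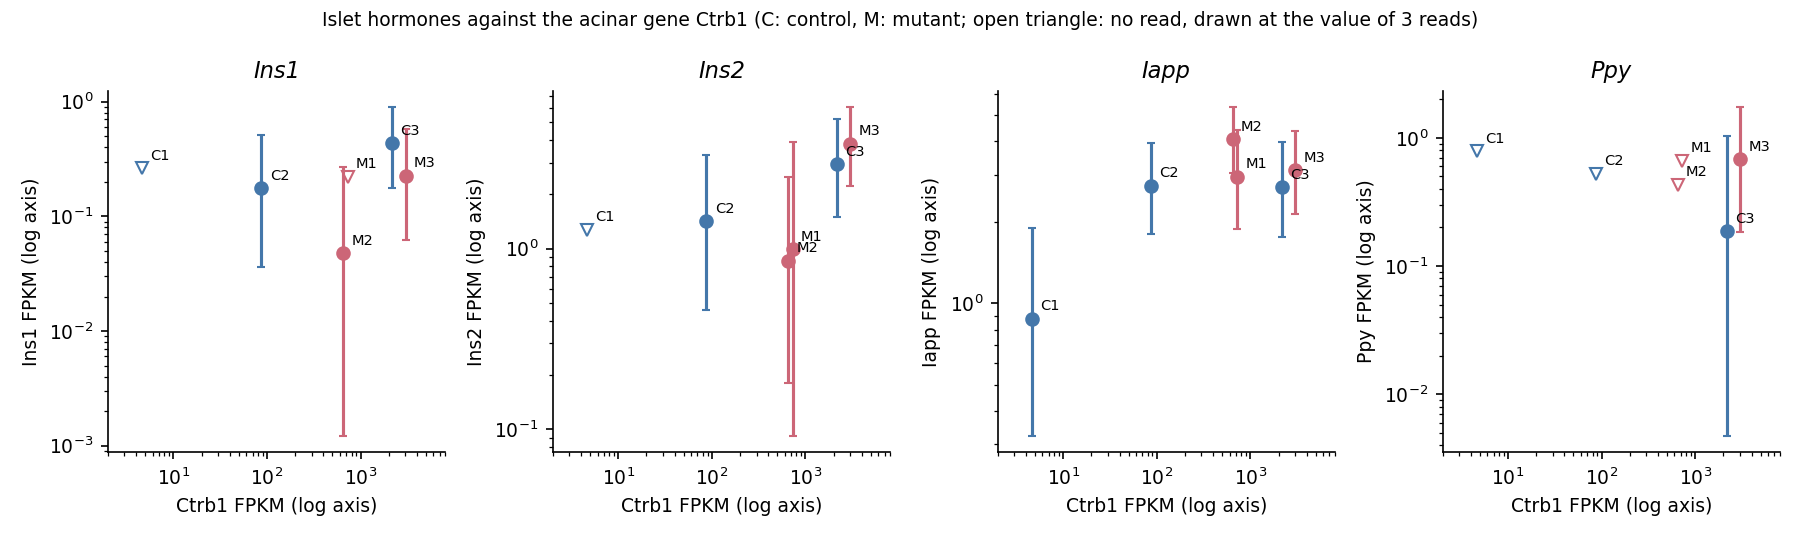
Each hormone against Ctrb1, both in FPKM on log axes, 1 point per library (C, control, and M, mutant), with 95% counting intervals. Open triangles are libraries without a read, drawn at the value of 3 reads. Control 1 stands alone at 4.61 FPKM of Ctrb1, and Iapp shows no rise from control 2 at 87.3 to mutant 3 at 3027 FPKM of Ctrb1 that exceeds its intervals.

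A fit across all rows gave the slope of each gene on Ctrb1 at a given genotype, as the change in log2(FPKM + 0.1) per 1 log2 of Ctrb1. No hormone passed (adjusted p, limma). Ins2 had a slope of 0.58 (SE 0.092, 95% interval 0.35 to 0.80, unadjusted p = 7.1e-04, adjusted p = 0.22), Ins1 of 0.30 (SE 0.073, adjusted p = 0.41), Ppy of 0.26 (SE 0.14, adjusted p = 0.60) and Iapp of 0.15 (SE 0.056, interval 0.01 to 0.29, adjusted p = 0.50). Of 15863 rows, 23 passed with a positive slope, 0.145%, so 0 of 4 hormones is not apart from that background. The slopes of genes near 0 depend on the pseudocount, and that of Ins2 was 0.26 at a pseudocount of 1 and 0.92 at 0.01.

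Single libraries changed these slopes. Ins2 passed without control 2 (0.58, adjusted p = 0.038, limma) and without control 3 (0.92, adjusted p = 0.024), and fell to 0.37 without control 1 (adjusted p = 0.43). Iapp had a slope of -0.021 without control 1 (adjusted p = 0.92). The 2 libraries with the most Ctrb1, control 3 and mutant 3, were also the only ones with Xist, the RNA of the inactive X chromosome, at 1 FPKM or above. Within the other 4 libraries the slope was 0.93 for Ins2 (adjusted p = 0.20) and 0.36 for Iapp (adjusted p = 0.997), and 0 rows passed there. The 2 libraries with Xist hold 1 sample of each group, too few for a fit of their own.

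Acinar genes showed what a slope on Ctrb1 looked like for its own cell type. Of 33 acinar rows tested, from a list of 31 genes chosen for this comparison, 32 had a positive slope and 19 passed. Over all rows 36.5% had a positive slope, and the median was -0.01 against 0.86 for the acinar rows. The gene Amy2a5 fills 4 of these rows, with near equal values, and each of the 4 passed. Pnlip, the pancreatic lipase, had a slope of 1.10 (adjusted p = 3.9e-05) and Cela2a, an elastase, of 1.06 (adjusted p = 5.3e-05). Clps, the lipase cofactor colipase, had a slope of 0.28 that did not pass (adjusted p = 0.34). Spink3, a trypsin inhibitor that stood highest of the list at a mean of 1533 FPKM, had a slope of -0.005 (adjusted p = 0.97). The slope of Ins2 lay within the range of the acinar rows, among them Cela1 at 0.76, which passed, and Gp2 at 0.67, which did not. Differences between slopes were not tested.

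**Figure D4:**
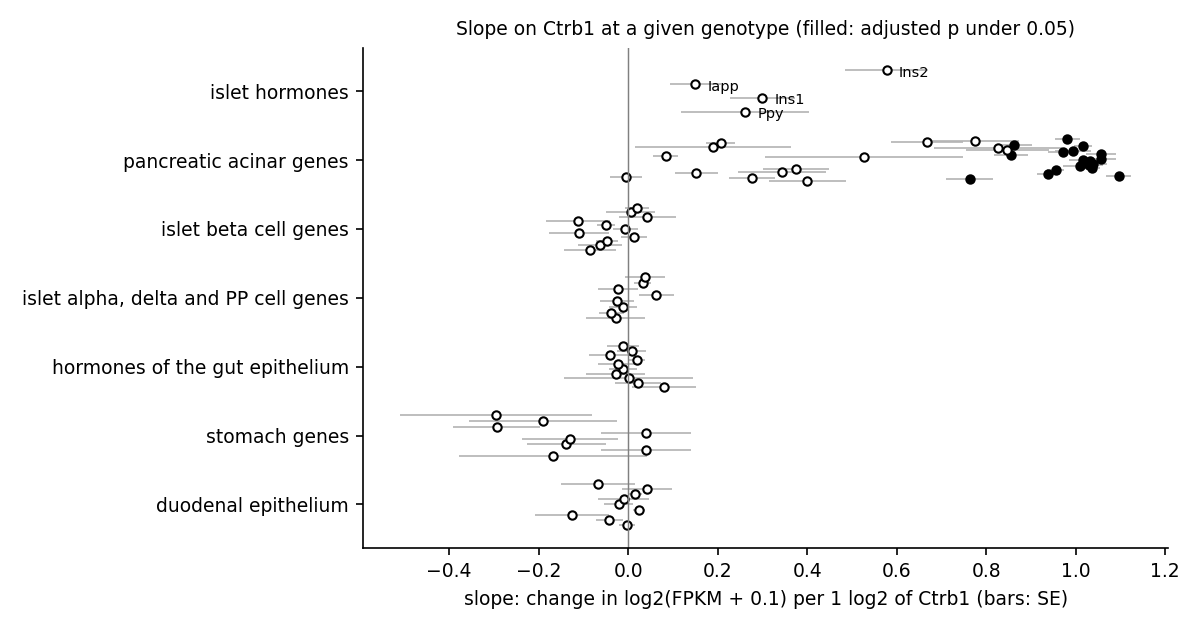
Slope on Ctrb1 (change in log2(FPKM + 0.1) per 1 log2 of Ctrb1, bars are SE) of the 4 hormones and of the tested genes of 6 lists. Filled points have an adjusted p under 0.05, which 19 of 33 acinar rows and none of the other points reached. Ins2 at 0.58 lies below the called acinar points, which start at 0.76, and the stomach genes have a median of -0.15.

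Some beta cell genes had no read and others were low but present. The genes Nkx6-1, G6pc2 and Slc30a8, named after their values were seen, were listed at 0 in all 6 libraries, where the value of 3 reads was at most 0.134 FPKM, and Mafa, a beta cell activator of insulin genes, did not exceed 0.116 FPKM. Ucn3, a peptide of mature beta cells, stood at 0.471 to 1.29 FPKM and Abcc8, a subunit of the beta cell potassium channel, at 0.165 to 0.368 FPKM. The more abundant listed genes are also expressed by duodenal epithelium. Slc2a2, a glucose transporter, stood at 149 to 221 FPKM, Pdx1, a factor of pancreas and duodenum, at 59.9 to 83.1 FPKM, Prlr, the prolactin receptor, at 20.8 to 30.2 FPKM and Ero1lb, an oxidase of protein folding, at 9.35 to 14.4 FPKM. The summed level of the 16 beta cell genes was 266 to 291 FPKM in the controls and 270 to 346 FPKM in the mutants. Of 11 tested, 4 had a positive slope on Ctrb1 and 0 passed, with a median of -0.05. Over all rows 36.5% had a positive slope and 0.145% passed with a positive slope, so these counts are not apart from that background. The part of other cells in the hormone levels was not tested.

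Of 8 genes of the other islet cells tested, 3 had a positive slope on Ctrb1 and 0 passed, with a median of -0.02. Over all rows 36.5% had a positive slope and 0.145% passed with a positive slope. Sst, somatostatin, stood at 92.1 to 137 FPKM (slope -0.01) and Gcg, proglucagon, at 5.67 to 11.4 FPKM (slope -0.02). Both are made by enteroendocrine cells of the duodenum as well as by islets. Pyy stood at 9.37, 14.8 and 9.46 FPKM in the controls and at 2.97, 5.66 and 2.39 FPKM in the mutants. It was lower in every mutant, as were 9.92% of all rows tested, and did not pass (log2 difference -1.65, SE 0.33, adjusted p = 0.79, limma). Irx1, an alpha cell factor, was listed at 0 in all 6 libraries.

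Between the genotypes no hormone passed the test. Mean Iapp was 2.11 ± 1.06 FPKM in controls and 3.38 ± 0.607 FPKM in mutants (SD, n = 3 each), a log2 difference of 0.80 (SE 0.41, 95% interval -0.18 to 1.79, adjusted p = 0.79, limma). Mean Ins2 was 1.46 ± 1.48 and 1.89 ± 1.67 FPKM, a log2 difference of 1.05 (SE 1.26, interval -1.94 to 4.04, adjusted p = 0.87). With no Ins2 read in control 1, that difference depends on the pseudocount, and was 0.30 at a pseudocount of 1 and 2.10 at 0.01. Mean Ins1 was 0.204 ± 0.220 and 0.0916 ± 0.120 FPKM (log2 difference -0.54, SE 0.71, adjusted p = 0.88), and mean Ppy 0.0623 ± 0.108 and 0.227 ± 0.392 FPKM (0.48, SE 0.89, adjusted p = 0.93). Of all 15864 rows tested 0 passed, 0%, while at an unadjusted p under 0.05 there were 237 higher and 685 lower in mutants, or 360 and 431 after quantile normalization and 432 and 472 after median ratio scaling.

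Iapp was the only one of the 4 whose groups did not overlap. Rows with every mutant above every control made up 3.13% of those tested (497 of 15864). Without control 1 the log2 difference of Iapp was 0.29. Ctrb1 itself averaged 754 ± 1228 FPKM in controls and 1467 ± 1351 FPKM in mutants (log2 difference 3.55, SE 2.03, adjusted p = 0.79), and 33 of 34 acinar rows tested (4 of them Amy2a5) had a positive difference, with a median of 3.00 against -0.05 over all rows. The log2 difference of Ctrb1 was 1.37 without control 1 and 5.79 without control 3. The authors' deposited table gives 0.99 for Ctrb1. That value is the log2 of a ratio of mean counts, not a difference of mean log2 values, so it is not set against these. Each mutant was above the control of the same number in Ctrb1 and in Iapp, and with the number as a block the intervals were 0.59 to 6.50 and 0.10 to 1.51 (adjusted p = 0.61 for both). With Ctrb1 as a covariate the log2 difference was 0.27 for Iapp and -0.998 for Ins2, -1.60 for Ins1 (unadjusted p = 0.014, adjusted p = 0.83) and -0.45 for Ppy. Ins2 also changed sign without control 1 (-0.43), Ppy without mutant 3 (-0.51) and Ins1 without control 3 (0.026).

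In the authors' deposited table of their DESeq comparison, Iapp had means of 19.7 and 32.6 normalised counts in controls and mutants, a log2 fold of 0.73 and an unadjusted p of 0.10. That deposited table gives log2 folds of 0.26 for Ins2, -1.11 for Ins1 and 1.90 for Ppy, and an adjusted p of 1 for all 4.

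The ratio to Ctrb1 was also compared between genotypes. The mean log2 ratio was lower in mutants (mutant minus control -4.08 for Ins1, -2.50 for Ins2, -2.75 for Iapp and -3.07 for Ppy). The two-sided exact permutation p was 0.1, 0.3, 0.3 and 0.4 in that order, 0.4 for each after adjustment over the 4, and 3 against 3 libraries cannot give less than 0.1. These differences carry the spread of Ctrb1 in the controls, where it ran from 4.61 to 2171 FPKM, and in libraries without a read the ratio is the pseudocount over Ctrb1. Without control 1 they were -2.56, -1.80, -1.08 and -1.14 in the same order, and without control 3 they were -5.77, -3.75, -4.74 and -4.81. No reading is drawn from them.

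RNA of the insulin receptor was present in the piece. The calcitonin receptor that amylin binds and the receptor of pancreatic polypeptide had fewer than 3 reads in every library. Insr, the insulin receptor, stood at 9.61 to 12.02 FPKM in controls and at 8.23 to 9.14 FPKM in mutants (log2 difference -0.26, SE 0.11, adjusted p = 0.79, limma). Irs2, an adaptor that passes on the insulin signal, stood at 3.44 to 5.61 FPKM. Amylin binds the calcitonin receptor Calcr joined to a Ramp protein. Calcr did not exceed 0.0140 FPKM, while Ramp2, which also serves other receptors, stood at 8.48 to 13.8 FPKM and Calcrl, its partner in the receptors of related peptides, at 2.97 to 4.76 FPKM. Ppyr1, the receptor of pancreatic polypeptide, did not exceed 0.0541 FPKM. Of 9 receptor genes tested, 3 had a positive and 6 a negative difference between genotypes, with a median of -0.16, and 0 passed. Over all rows tested, 38.7% had a positive difference.

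Among regulators of islet hormone genes, Hnf4a stood at 196 to 244 FPKM, Neurog3, the factor that starts endocrine fate in both organs, at 1.65 to 2.77 FPKM and Foxa2 at 1.48 to 2.29 FPKM. Of 13 regulators tested, 2 had a positive and 11 a negative difference between genotypes, with a median of -0.14 against -0.05 over all rows, of which 38.7% had a positive difference. Of 12 genes for processing and storing prohormones, 0 had a positive and 12 a negative difference, with a median of -0.30. Among them Chga, a granule protein, stood at 32.3 to 40.2 FPKM in controls and 13.2 to 18.3 FPKM in mutants (log2 difference -1.23, SE 0.14, adjusted p = 0.28), and Chgb at 87.8 to 96.7 and 44.2 to 71.3 FPKM (-0.73, SE 0.17, adjusted p = 0.79). The groups did not overlap for either, and neither passed. Among all rows tested, 9.92% (1574 of 15864) likewise had every mutant below every control. The carboxypeptidase Cpe (-0.28) and the amidating enzyme Pam (-0.20), which completes amylin, also did not pass.

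The leading hormones of the gut epithelium stood above the islet hormones per length, while Gast, gastrin, and Nts, neurotensin, averaged 0.390 and 1.43 FPKM. Gip stood at 100 to 212 FPKM, Sct at 92.3 to 155 FPKM and Cck at 55.9 to 76.6 FPKM in controls and 92.7 to 139 FPKM in mutants (log2 difference 0.85, SE 0.18, adjusted p = 0.79, limma). Of the 10 genes listed, 7 had a positive and 3 a negative difference, with a median of 0.23, against 38.7% positive over all rows, and 0 passed. On Ctrb1, 5 had a positive and 5 a negative slope, with a median of -0.005, against 36.5% positive over all rows.

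The rows most like each hormone over the 6 libraries, by Pearson's r of log2(FPKM + 0.1) among rows with a mean of at least 1 FPKM, were Gimap7, Kti12, Clrn3, Cars2 and Snhg6 for Ins2 (r = 0.97 to 0.98), with Ctrb1 in place 74 of 12569. For Iapp they were Deaf1, Klk8, Tulp3, Ehd1 and Guca2b (0.96 to 0.98), with Ctrb1 in place 166. Guca2b, which encodes the epithelial peptide uroguanylin, stood at 391 FPKM in control 1 and 573 to 742 FPKM in the other libraries. For Ins1 they were Uimc1, Dnajb1, Gm16062, Helq and Ldhb (0.97 to 0.98), and for Ppy, Gnb2l1, Rps28, Rpl34, Gltscr2 and Rpl19 (0.98 to 0.99), with Ctrb1 in places 1337 and 1160 of 12570. With 6 libraries and so many rows, such values of r are a description only, and for Ppy they rest on 2 libraries above 0.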

How the data were processed

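RNA of 6 duodenal pieces was sequenced, per the labels' protocols after storage in RNAlater, isolation with RNeasy kits and TruSeq library preparation. The submitters' processing notes name CASAVA 1.8.2, TopHat, Cufflinks, DESeq and build mm9, and give no further version. The read length was also not found. Per the file headers, the authors deposited FPKM with a confidence interval for genes and RefSeq transcripts, and for transcripts the coverage. Their comparison table, as deposited, holds group means of counts divided by size factors (a signal), a ratio of the means, its log2 and p-values. Groups came from the sample titles.

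FPKM carries no count, so reads were implied from the interval as (FPKM / SE) squared, with the upper bound taken as 2 SE above the value. For genes with 1 transcript and under 500 reads, 88.2% to 88.5% of values lay within 0.05 of a whole number. Exact Poisson intervals (95%) of a level rest on these reads before rounding, and the limit at 0 is the value of 3 reads. Intervals of Ins2, whose implied reads were not all whole, are approximate.

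Rows averaging 0.1 FPKM or more (15864 of 23699, 7835 below) were fitted with limma 3.58.1 in R 4.3.3, trended prior, on log2(FPKM + 0.1), first for mutant minus control and then for log2 Ctrb1 with a group term. Adjustment was by Benjamini and Hochberg over all rows, with a threshold of 0.05. Fold changes on this scale understate those of low genes. All 4 hormones passed the filter, Ins1 and Ppy through few libraries. Ratios and correlations were tested by exact permutation. The fits were tested on simulated data.

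Same-numbered libraries deviated together (r of deviations from group means 0.11, 0.21 and 0.39 for numbers 1, 2 and 3, from the titles; 0.13 for control 1 with mutant 2, and 0.061 or less for the other unlike numbers), so a fit with the number as a block was also run. It left no hormone past the threshold. The labels name no litter or separate culture, so p-values measure the spread between these samples. Alternatives changed the pseudocount, filter, scaling, reference gene, group term and covariate, added the block, and left out libraries.

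The 4 hormones and the 9 lists (126 entries) were chosen with earlier results of these data known. Beside the hormones, Ctrb1 and Nkx2-2, genes named are up to 4 of each list with the highest mean FPKM and the 5 rows most like each hormone. Of the genes this rule names, 2 are not reported here. Nkx6-1, G6pc2, Slc30a8, Mafa, Irx1, Calcr, Ppyr1, Muc5ac, Tff1, Gkn1, Gkn2, Atp4a, Atp4b, Gif, Vil1, Cdx2, Xist, Ucn3, Abcc8, Gast, Nts, Cela1, Gp2, Amy2a5 and the genes under other observations were named after their values were seen. Npy4r and Muc2 had no row of that name.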

Additional observations from a re-analysis of the deposited data

How the results depend on the processing

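Of 174 alternative values for the hormones' differences between genotypes, slopes and correlations, 163 kept their direction and their side of the threshold. The ratio tests could not pass at this size and are not counted. The count of rows called between genotypes was 0 and became 2 with the replicate block, and ranged from 0 to 3 when 1 library was left out (2 without control 2, 3 without mutant 1, 2 without mutant 2). The count of rows with a called positive slope on Ctrb1 was 23 and became 82 with the replicate block (66 were then called negative), 0 in the libraries with Xist under 1 FPKM and 3 with the mean of the acinar list as reference. It ranged from 19 to 34 when 1 library was left out. The block changed no other call. Without 1 library, the log2 difference between genotypes ran from -1.19 to 0.026 for Ins1, from -0.43 to 2.04 for Ins2 and from -0.51 to 0.99 for Ppy, and the slope of Iapp on Ctrb1 from -0.021 to 0.25. Directions reversed for the log2 difference between genotypes of Ins1 without control 3 (0.026), of Ins2 without control 1 (-0.43) and with Ctrb1 as a covariate (-0.998), and of Ppy without mutant 3 (-0.51) and with that covariate (-0.45). They also reversed for the slope of Iapp without control 1 (-0.021), the slope of Ppy with the replicate block (-0.19) and the correlation of Iapp with Ctrb1 without the 2 libraries farthest in Ctrb1 (-0.56). The correlation of Ins2 with Ctrb1 passed without control 2 (0.98, adjusted exact p = 0.033), and ranged from 0.61 to 0.98 when 1 library was left out. Ins1 and Ppy fall under a filter at a mean of 1 FPKM, and Ppy is 0 in all libraries with Xist under 1 FPKM, so those settings give no value for them. The cause of these changes was not tested. Depth limits Ins1, Ins2 and Ppy most, with 0 to 17 implied reads in a library.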

Other observations

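Outside the acinar list, 4 of the 23 rows with a called positive slope on Ctrb1 were found. They were 2210010C04Rik (slope 0.95, adjusted p = 2.6e-05, limma), Pla2g1b, the phospholipase of pancreatic juice (0.93, adjusted p = 3.8e-04), Gm13011 (0.77, adjusted p = 0.0089) and Aqp12, an aquaporin of acinar cells (0.55, SE 0.048, adjusted p = 0.016). The slope of Aqp12 was close in size to the 0.58 of Ins2, which had an SE of 0.092 and did not pass.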
